A study of Mus musculus with 14 samples.

Results

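MHCII-high alveolar macrophages sorted 4 weeks after bleomycin were compared with MHCII-low alveolar macrophages of water-treated control lungs. The first group had 3 libraries and the second had 2, labelled replicates 1 and 3. A gene entered the comparison when it reached 10 normalized counts in at least 2 of these 5 libraries, which held for 15475 of the 43432 genes in the table. The libraries belong to an RNA-seq series of 14 libraries, in which SiglecF-positive, CD11c-positive lung cells were sorted by MHC class II (MHCII) surface level. The 4-week MHCII-high group came from male 129S1 mice aged 10 to 12 weeks that received bleomycin into the trachea at a dose labelled 3 U/k. The control MHCII-low group came from male 129S1 mice of the same age range that received water by the same route. Both groups share the strain, the sex, the SiglecF and CD11c gates and the library protocol, and the labels give no genotype beyond the strain. Treatment and MHCII level differ together. No MHCII-high control library was analysed here, so the part of bleomycin and the part of MHCII level in a difference cannot be told apart. Nothing is said in the labels of which of the 2 sorter models named handled which sample. As a point of reference, the values of MHCII-low cells 4 weeks after bleomycin (3 libraries) are set beside the main values.

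Alveolar macrophages live on the airspace surface, where they take up particles, pathogens and surfactant lipid. In mice they carry the sialic acid-binding lectin SiglecF and the integrin CD11c. MHC class II molecules are pairs of alpha and beta chains that show peptides to CD4 T cells. The invariant chain Cd74 guides them to endosomes, H2-DM loads the peptide, H2-O restrains H2-DM, and the coactivator Ciita switches the genes on as a set. Bleomycin breaks DNA, and given into the airway it injures the lung and leads to fibrosis. After such injury, macrophages derived from blood monocytes enter the airspace beside the resident ones.

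Depth differed between the groups. The 4-week MHCII-high libraries held 15106415, 27040538 and 30781831 reads, and the controls 88059675 and 45064656 (reads recovered from the deposited values). Mitochondrial ribosomal RNA took 8.12% to 28.99% of the reads in the MHCII-high libraries and 21.67% and 24.08% in the controls. MHCII-high replicate 3 lay apart on the second principal component of all 14 libraries, at 88.4 against 11 and -52.0 for the other MHCII-high libraries. Nothing in the labels says that libraries of a group came from separate animals, so p-values measure only the spread between these libraries, which may be technical. In bulk samples such as these, fewer cells of a type and less RNA per cell cannot be told apart.

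Of 15475 genes, 388 (2.51%) differed at an adjusted p of at most 0.05 (limma, Benjamini-Hochberg). Among them 317 (2.05% of those tested) were higher in 4-week MHCII-high cells and 71 (0.459%) were lower, so 81.7% of the calls were increases. The counts given below for each gene list are to be read beside these shares. The median log2 fold change was 2.65 among increases and -1.50 among decreases, beside -0.06 over all tested genes. At least 16-fold higher were 100 genes, and at least 4-fold lower were 31. The filter let 431 genes pass only through the MHCII-high libraries and 314 only through the controls; 177 genes had a second-highest value of 10 to under 11 and passed, and 236 had one of 9 to under 10 and did not. Values of the groups did not overlap for any of the 388 called genes, whereas 27.2% of all tested genes had groups that did not overlap. In 63 of the 317 increases the control mean was below 10 normalized counts, and in 28 of the 71 decreases the MHCII-high mean was. For low genes the smaller depth of the MHCII-high libraries moves with the comparison, and its part in those decreases was not tested. The calls depended on both controls: there were 213 without control replicate 1 and 137 without control replicate 3, when an arm has 1 library that is assumed to vary like the other groups. Without MHCII-high replicate 3 there were 405 calls. With the spread taken from the 5 compared libraries alone there were 135 calls, 129 higher and 6 lower. Of the 388 genes, 103 stayed called whichever of the 5 libraries was left out, and 101 of these were increases.

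**Figure D1:**
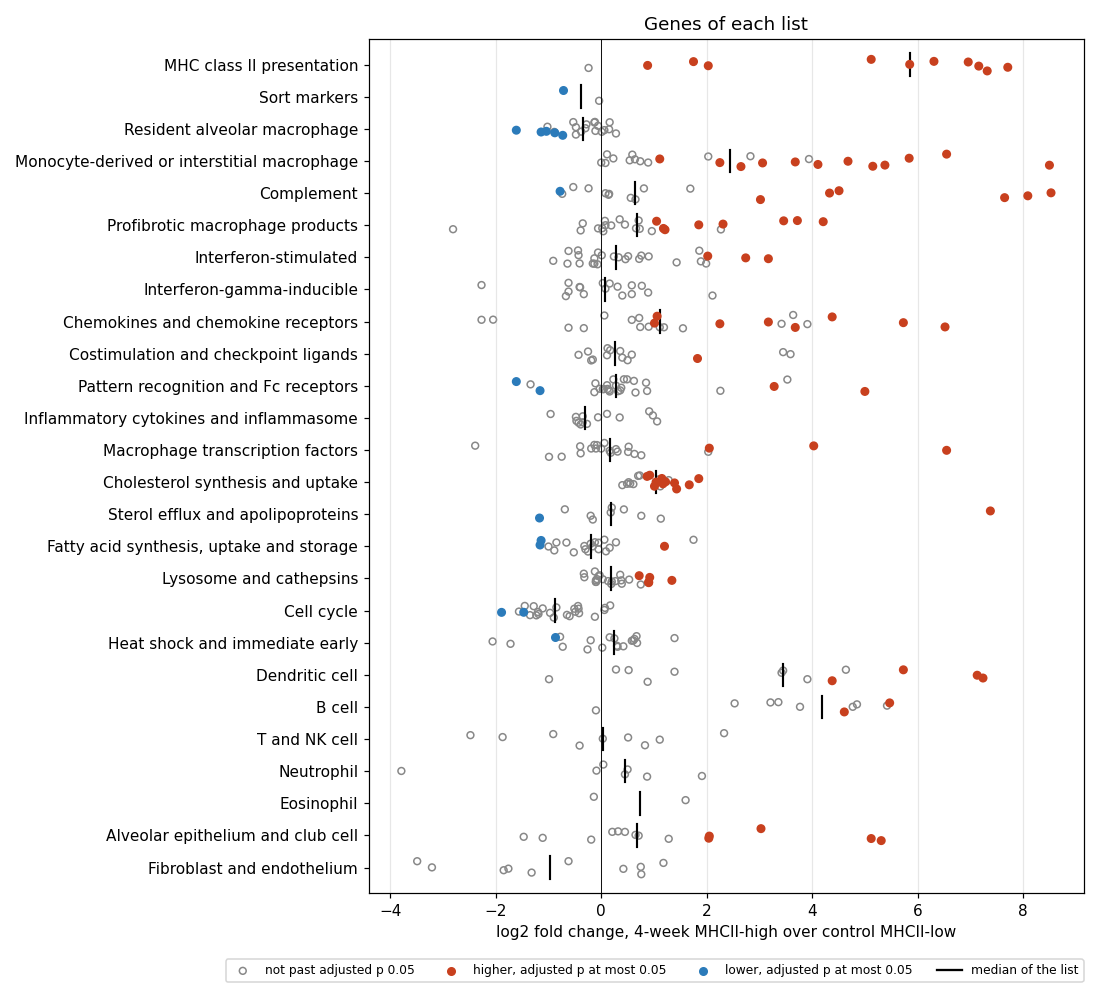
Log2 fold change of 4-week MHCII-high over control MHCII-low cells (x axis) for each tested gene of 26 lists (y axis), with filled points past an adjusted p of 0.05 and a black line at each list's median. MHC class II genes lie far to the right with a median of 5.85, and cell cycle genes lie mostly left of 0 with a median of -0.87.

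The MHC class II genes check the labels, since the sort itself used MHCII protein, and their size is a description of the gate and not an independent result. Of 11 genes, 10 were higher in 4-week MHCII-high cells, 0 were lower, and the median log2 fold change was 5.85 (5.32 with H2-Eb2, unread in the controls, at its lower bound). The class II alpha chain H2-Aa (chr17:34282744-34287827, build mm10) had 23262, 16283 and 25311 normalized counts in the MHCII-high libraries and 128 and 137 in the controls, a log2 fold change of 7.32 ± 0.37 (SE) with an adjusted p of 9.6e-11. Its partner chain H2-Ab1 (chr17:34263209-34269418) had 13418, 10625 and 17569 against 99.7 and 118. Every MHCII-high library was far above both controls for either chain. The second class II beta chain, H2-Eb1 (chr17:34305877-34316199), stood at 6089.7, 3012 and 5630.4 against 23 and 19.8, 210-fold higher on the fitted scale. For the invariant chain Cd74 the values were 103125, 60414 and 129257 against 1013 and 1352 (6.31 ± 0.37 on the log2 scale). The coactivator Ciita (chr16:10488178-10527564), which is the upstream switch of this set, was read at 1319.5, 1396 and 2208 against 38.6 and 52.5, or 34.7-fold higher with an adjusted p of 3e-08.

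The peptide loading genes had smaller fold changes. H2-DMb1 rose 4.09-fold (5197, 5414 and 8306 against 1550.0 and 1462 normalized counts), and H2-DMb2 rose 3.36-fold, but these 2 genes are near-identical and reads may be split between them. H2-DMa showed 9324, 8474 and 10220.2 against 6084 and 4222, a log2 fold change of 0.88 ± 0.22, and it was no longer called without MHCII-high replicate 1 (adjusted p = 0.067), MHCII-high replicate 3 (0.093) or control replicate 3 (0.61), and with TMM factors, voom or edgeR. The beta chain of H2-O, H2-Ob, rose from 6.2 and 0 in the controls to 516, 515 and 212. Its alpha chain H2-Oa was the 1 member not called, at 64.5, 17.3 and 17 against 21.4 and 47.3 (-0.24 ± 1.05, adjusted p = 0.95), with overlapping groups. H2-Eb2, which may share reads with its neighbour H2-Eb1, had 0 reads in both controls and 43.7, 26.7 and 155 in the MHCII-high libraries, at least 40.0-fold higher against a floor of 3 reads per control library. Without control replicate 3, the calls of H2-Ob (adjusted p = 0.14), H2-DMb2 (0.097) and H2-Eb2 (0.11) were lost, and without control replicate 1 that of H2-Eb2 (0.075).

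In MHCII-low cells 4 weeks after bleomycin most class II genes lay between both groups. H2-Ab1 had 569, 338 and 581 normalized counts there, above both controls and far below the MHCII-high libraries. Its log2 fold change of 4-week MHCII-low over control cells was 2.14 ± 0.35 (adjusted p = 0.019), and it was the 1 class II gene past the threshold there, in a comparison with 6 calls in 15475 genes (0.0388%). H2-Aa stood at 409.9, 381 and 778 in those cells, 1.90 ± 0.37 over control with an adjusted p of 0.07. Dendritic cells and B cells also express class II genes at high levels. Dendritic cell markers summed to 3172 to 4619 normalized counts in the 4-week MHCII-high libraries and 411.6 to 479.9 in the controls, with 4 of 13 tested markers called higher. B cell markers other than Cd22, left out after its values were seen, summed to 1447 to 4410 against 153.1 to 244.0. With Cd22 the sums were 10657 to 13062 against 9840 to 10105.5. In 4-week MHCII-low libraries the sum without Cd22 was 55.4 to 2202. Of 10 tested markers 2 were called higher, and Pax5 was at 0 in both controls. Ighm, at 1592, 2975 and 377 against 161 and 105, was not called (adjusted p = 0.16). The part of dendritic cells and B cells in the class II levels was not tested.

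Class II promoters are known to carry a shared module, in which the X box is bound by RFX factors and the Y box, with the letters CCAAT, is bound by NF-Y. The 150 bases upstream of the start site are shown for H2-Aa, H2-Eb1 and H2-Ob, so that the module can be seen beside the expression values. H2-Aa and H2-Eb1 are strongly raised chains, not partners of each other, and H2-Ob is the H2-O chain that rose. The sequences are from RefSeq (GRCm38.p6), and capitals mark CCAAT on either strand (ATTGG when read in reverse) and GCAACNG, an X box core, on either strand. The stretches lie at chr17:34287824-34287973 on the minus strand, chr17:34305717-34305866 on the plus strand and chr17:34238755-34238904 on the plus strand.
H2-Aa: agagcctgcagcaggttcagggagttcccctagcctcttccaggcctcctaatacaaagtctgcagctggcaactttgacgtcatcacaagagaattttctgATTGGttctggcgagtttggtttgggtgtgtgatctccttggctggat
H2-Eb1: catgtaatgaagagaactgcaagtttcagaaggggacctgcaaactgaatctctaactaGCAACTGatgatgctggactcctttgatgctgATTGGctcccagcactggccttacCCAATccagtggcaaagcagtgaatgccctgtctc
H2-Ob: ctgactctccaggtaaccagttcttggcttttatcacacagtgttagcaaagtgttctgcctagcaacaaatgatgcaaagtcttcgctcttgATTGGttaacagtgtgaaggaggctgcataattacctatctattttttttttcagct
The reversed CCAAT began 48 bases before the start of H2-Aa, 59 bases before that of H2-Eb1 and 57 bases before that of H2-Ob, and H2-Eb1 held another CCAAT at 35 bases. GCAACNG began 91 bases before the start of H2-Eb1. Of the 11 class II genes, 8 had promoter windows (250 bases before to 50 after the start) in the table used. These made 9 windows. CCAAT was in 8 of the 9, beside 37.4% of all 32851 windows. Each of the 8 genes had a window with it, including H2-Oa, which was not called. For H2-DMa that window began at chr17:34125268, outside the span of the gene in the deposited table (chr17:34135182-34139101). GCAACNG was in 2 of the 9 windows and in 12.7% of all windows. The letters GCAAC without the final G also stand upstream of the reversed CCAAT in the printed H2-Aa and H2-Ob stretches. The exact pattern does not count those, so a window without it may still hold an X box. These matches describe letters in a window, not bound sites.

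**Figure D2:**
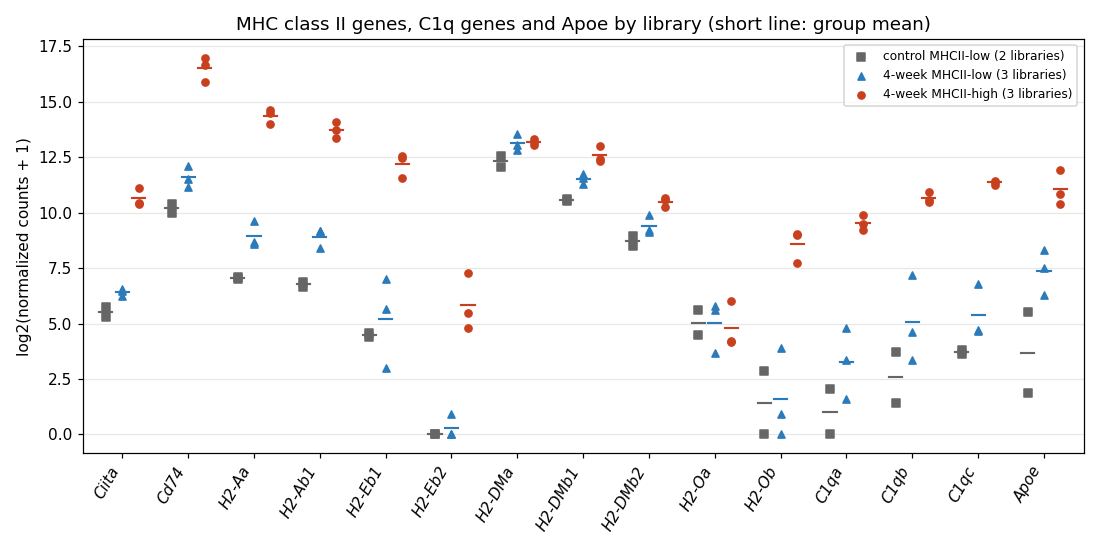
Level of each gene in each library as log2(normalized counts + 1), for control MHCII-low, 4-week MHCII-low and 4-week MHCII-high cells. For every gene shown except H2-Oa, all 3 MHCII-high libraries lie above both controls, with the 4-week MHCII-low libraries in between for most genes.

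Outside class II, the largest increase among named genes with a mean of at least 100 normalized counts was that of H2-M2 (chr17:37480851-37483552), a nonclassical MHC class I gene of the same chromosome. It had 1686, 2142 and 1032 normalized counts in the MHCII-high libraries and 2.3 and 0.9 in the controls, a log2 fold change of 9.28 ± 0.79 (adjusted p = 2.5e-07), and 0, 0 and 5.3 in 4-week MHCII-low cells. Adam23 (chr1:63445891-63596276), a disintegrin-family surface protein, followed at 1242, 634 and 609 against 1.6 and 0 (8.92 ± 1.24). The galactose-binding lectin receptor Mgl2 (chr11:70130329-70137550), a marker of some dermal and lung dendritic cells and macrophages, had 604, 589.9 and 218. A single read was found for Mgl2 in both controls together, so the ratio of 1620 has a 95% interval of 291 to 64200 from counting error alone. Blnk, an adaptor of B cell receptor and macrophage signalling, rose 201-fold (562, 1155 and 992 against 17.5 and 0). Fscn1, an actin bundling protein of mature dendritic cells, rose from 4.7 and 0 to 235, 690.3 and 289.7, and its call was lost without control replicate 3 (adjusted p = 0.079). All 3 MHCII-high libraries exceeded both controls for each of these genes, which the rule for naming them required.

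Complement genes moved in both directions. Of 17 tested genes 6 were higher and 1 was lower, with a median log2 fold change of 0.65. The 3 chains of C1q, which binds immune complexes and dying cells and starts the classical pathway, lie side by side on chromosome 4. C1qa (chr4:136895917-136898803) had 955, 601 and 723 normalized counts in the MHCII-high libraries and 3.1 and 0 in the controls (8.53 ± 0.91, adjusted p = 5.6e-06). C1qb (chr4:136880129-136886187) had 1509, 1422 and 1969 against 12.1 and 1.7. C1qc (chr4:136889804-136893065) had 2404, 2785 and 2685 against 11.3 and 12.9, 200-fold higher. All 3 chains were scarcely read in the controls and far higher in every MHCII-high library. In 4-week MHCII-low cells C1qc was read at 24.9, 24.5 and 109.8, which was not past the threshold over control (adjusted p = 0.64).

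C3ar1, the receptor of the C3a fragment, rose 20.2-fold, with 1958, 3041 and 3702 in the MHCII-high libraries and 142 and 134 in the controls. C4b rose 8.09-fold (375, 604 and 196 against 53.4 and 34.4). Its reads may be shared with a near-identical C4 copy, and 4-week MHCII-low cells held 219, 211 and 231. The C4b call was lost with voom. C3 itself, the central component, fell by 0.78 on the log2 scale (9859, 7575 and 8668 against 15134 and 14566). The C3 call was lost without MHCII-high replicate 2 (adjusted p = 0.076), control replicate 1 (0.18) or control replicate 3 (0.17). The C5a receptor C5ar1 was at 14606, 15558 and 15617 against 18114 and 17802 and was not called (adjusted p = 0.58).

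Genes of monocyte-derived and interstitial macrophages rose in 12 of 24 tested cases and fell in 0, and the median log2 fold change was 2.45. The monocyte chemokine receptor Ccr2 was at 3632, 3306 and 2852 normalized counts against 726 and 639.7, 4.76-fold higher. For Ccr2 the 4-week MHCII-low libraries (549.7, 648 and 669.5) did not stand above the controls. Itgam, which encodes the integrin CD11b, rose 8.34-fold (5748, 4079 and 4338 against 885 and 353), and 4-week MHCII-low cells had 412, 530.4 and 522.

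The fractalkine receptor Cx3cr1 rose 12.8-fold, from 106 and 61.1 to 1018, 1318 and 844. Tmem176b, a cation channel of antigen-presenting cells, was 25.7-fold higher. The lipid receptor Trem2 rose 2.16-fold (3457, 3198 and 5486 against 1906 and 1736). The scavenger receptor Cd163 had 552, 398 and 35.3 against 2.3 and 6.0, with MHCII-high replicate 3 well below the other 2. Csf1r, the receptor of the macrophage growth factor CSF-1, was at 18579, 18286 and 25225 against 12492 and 15748 and was not called (adjusted p = 0.12). Folr2 and Lyve1, markers of interstitial macrophages beside vessels, were not called either (2.83 and 0.59, adjusted p = 0.46 and 0.93). The count fell to 9 without control replicate 1 and to 6 without control replicate 3. The calls of Fcrls, a scavenger-type Fc receptor relative, Tmem176a and Cd163 were lost in both cases (adjusted p 0.068, 0.11 and 0.15 without replicate 1, and 0.098, 0.077 and 0.074 without replicate 3). Without control replicate 3 those of Trem2 (0.14), the clotting factor subunit F13a1 (0.42) and the scavenger receptor Stab1 (0.31) were lost too, and the adjusted p of Trem2 was 0.052 without control replicate 1.

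Macrophage products linked to fibrosis rose in 8 of 24 tested genes and fell in 0, with a median log2 fold change of 0.69. The elastase Mmp12 (chr9:7344381-7369499) had 11137, 12179.8 and 20314 normalized counts against 994 and 577 (4.21 ± 0.32, adjusted p = 6.7e-08). Mmp14, a membrane-bound collagenase, was at 335, 381 and 699 against 29.2 and 54.2, 11-fold higher. Fibronectin, Fn1 (chr1:71585520-71653200), a matrix protein, rose 4.97-fold from 27740.5 and 32671 to 111804, 140178 and 213533. Osteopontin, Spp1, rose 3.6-fold (18779, 24989 and 36775 against 6964 and 7388). In these 4 genes MHCII-high replicate 3 was the highest library. The growth factor Igf1 rose 2.26-fold, the protease inhibitor Timp2 2.07-fold and the neutrophil-type collagenase Mmp8 2.31-fold. Without control replicate 1 the calls of Timp2 (adjusted p = 0.18) and Igf1 (0.064) were lost, and without control replicate 3 that of Mmp8 (0.16).

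Lrg1, a glycoprotein that modifies TGF-beta signalling, was raised in both bleomycin groups. It had 204, 471 and 492 in the MHCII-high libraries, 35.4 and 19.8 in the controls and 352, 212 and 336 in 4-week MHCII-low cells. Both bleomycin groups lay above the controls and overlapped each other. The log2 fold change over control was 3.72 ± 0.43 for MHCII-high and 3.41 ± 0.43 for MHCII-low cells, and that between both 4-week groups was 0.30 ± 0.38 (adjusted p = 0.77). Tgfb1, the cytokine itself, was at 7316, 10186 and 8009.9 against 7076 and 7725 (adjusted p = 0.76). Arg1 and Pdgfb, a repair enzyme and a fibroblast growth factor, were at 0.96 and 0.73 on the log2 scale with adjusted p of 0.64 and 0.59. Gpnmb, a lysosomal glycoprotein of lipid-laden macrophages, was at 45094, 47401 and 45191 against 40420.3 and 47149.9, with overlapping groups.

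Cholesterol synthesis and uptake genes rose in 11 of 21 tested cases and fell in 0. All 21 had a positive log2 fold change, and the median was 1.04 beside -0.06 over all genes. Sqle (chr15:59315077-59331192), the squalene epoxidase, had 3397, 4348 and 3000.2 normalized counts against 1116 and 1624 (1.39 ± 0.22, adjusted p = 0.00064). Msmo1, a sterol methyl oxidase of a later step, had 1488, 2298 and 2185 against 774 and 677, or 2.7-fold. Groups did not overlap in either gene, and MHCII-high replicate 2 was the highest library in each. Along the pathway, the early synthase Hmgcs1 rose 2.21-fold. Lss, which closes the sterol rings, rose 2.05-fold. The later enzymes Cyp51 and Sc5d rose 2.34-fold and 3.6-fold. Stard4, a sterol carrier, rose 1.83-fold. Srebf2, the transcription factor of the pathway, was at 2620.3, 5016 and 4401 against 1996 and 1859, 2.01-fold higher, with an adjusted p of 0.048. The count of 11 cholesterol genes was 9 to 10 without any 1 MHCII-high library, 6 without control replicate 1 and 3 without control replicate 3, with Sqle among them. Without control replicate 1 the calls of Hmgcs1 (adjusted p = 0.059), Srebf2 (0.2), Lss (0.24) and Stard4 (0.24) were lost, and without control replicate 3 the lost calls had adjusted p from 0.053 (Msmo1) to 0.4 (Srebf2). Lss was lost without MHCII-high replicate 1 (0.1) or 3 (0.11), Srebf2 without replicate 2 (0.14) or 3 (0.12) and Stard4 without replicate 2 (0.099). The calls of Srebf2 and Lss were also lost with TMM factors, voom or edgeR, and that of Stard4 with edgeR on TMM factors.

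In 4-week MHCII-low cells the same genes were nearer to control. Sqle had 1692, 2064 and 1455 there (0.35 ± 0.22 over control, adjusted p = 0.84) and Msmo1 876, 1184 and 946 (0.46 ± 0.25, adjusted p = 0.81). None of the 21 genes was past the threshold between 4-week MHCII-low and control cells, and 6 were between both 4-week groups. Of 10 sterol efflux and apolipoprotein genes 1 rose and 1 fell, beside 2.05% and 0.459% of all tested genes. Their median was 0.19. Apoe (chr7:19696109-19699188), the lipid-carrying apolipoprotein, rose from 44.4 and 2.6 to 1353, 1834 and 3899.7 (7.38 ± 0.78), and 182, 76.5 and 318 were read in 4-week MHCII-low cells. Mylip, a ligase that lowers lipoprotein uptake, fell by 1.17 on the log2 scale (1904, 1789 and 1367 against 3578 and 3957). The exporters Abca1 (5057, 4224 and 5462 against 6444 and 9712, adjusted p = 0.058) and Abcg1 (57448, 53782 and 64751 against 63386 and 67223, adjusted p = 0.82) were not called. The Mylip call was lost without either control (0.055 and 0.15).

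**Figure D3:**
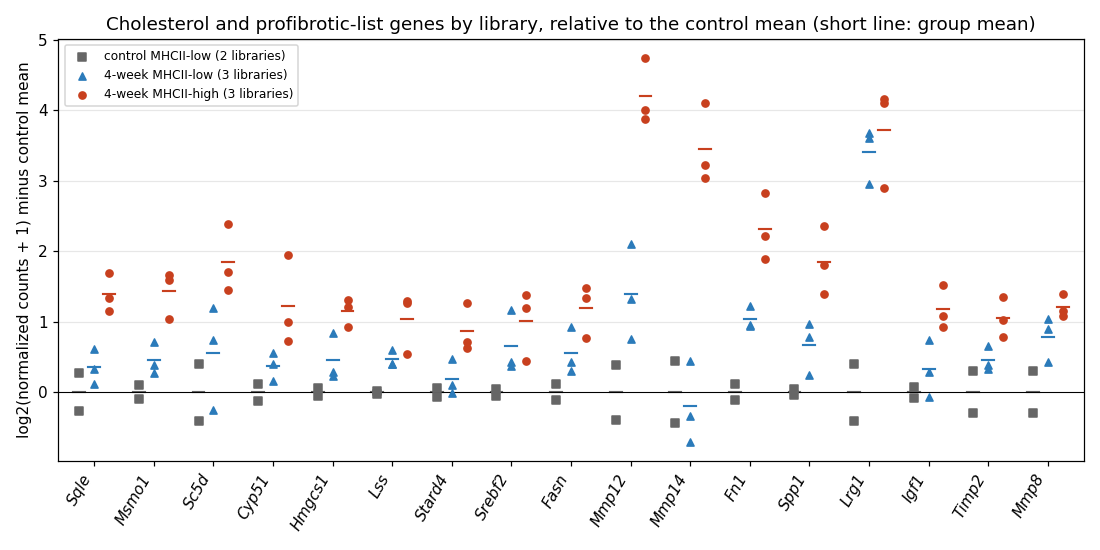
Log2(normalized counts + 1) of each library minus the mean of the control libraries, for cholesterol genes, Fasn and profibrotic-list genes. Only genes called higher are shown, so the MHCII-high libraries lie above 0 by the choice of genes. The 16 of 24 profibrotic-list genes that were not called are left out. For Lrg1 the 4-week MHCII-low libraries lie among the MHCII-high ones.

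Chemokine receptors and chemokines rose in 8 of 23 tested genes and fell in 0, with a median log2 fold change of 1.11. Besides Ccr2 and Cx3cr1, the inflammatory chemokine receptor Ccr1 rose 2.02-fold (1118, 973 and 1898 against 775 and 513). Ccr7, which guides cells to lymph nodes, had 204, 337 and 197 against 9.7 and 0.9. Among ligands, the membrane-bound Cxcl16 was at 1253, 1134 and 1565 against 197 and 105, 9.02-fold higher with an adjusted p of 2.2e-06. Ccl22, a ligand for regulatory T cells, was at 2148, 1955 and 1674 against 129.7 and 63.7, 20.8-fold higher. The B cell chemokine Cxcl13 was at 244, 469 and 63.3 against 3.5 and 0, lowest in MHCII-high replicate 3. Every MHCII-high library was above both controls in these genes. Ccl2 and Ccl7, which recruit monocytes, were not called: Ccl2 had 125, 121 and 101 against 77.5 and 18.9, and Ccl7 was unread in the controls and in MHCII-high replicate 3. Ccl6, a chemokine of resident macrophages, was at 31031, 33401 and 37044 against 15085 and 27849 (adjusted p = 0.16). The Ccr1 call was lost without MHCII-high replicate 3 (adjusted p = 0.15), control replicate 1 (0.061) or control replicate 3 (0.68), and with TMM factors, voom or edgeR. Without control replicate 3 the calls of Cxcl13 (adjusted p = 0.16) and Ccr7 (0.24) were lost. Ccr7 and Ccl22 are also dendritic cell markers, a group whose summed level is given above.

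Costimulation genes rose in 1 of 14 cases and fell in 0, beside 2.05% and 0.459% of all tested genes. Their median was 0.26. Cd86, a ligand that costimulates T cells, was at 531, 962 and 1334 against 332 and 186 (3.53-fold, adjusted p = 0.011), and its call was lost without control replicate 3 (0.34). Cd40, a receptor of T cell help, was at 60.4, 36.1 and 9.7 against 2.7 and 0.9 (adjusted p = 0.2), and no library of either group overlapped the other. The checkpoint ligand Cd274 (PD-L1) was at 36888, 35948 and 26667 against 28423 and 53342 and Havcr2 (TIM-3) at 22188, 18199.8 and 16586 against 13734 and 22109, both with overlapping groups. Cd80 differed by 0.58 ± 0.42 (adjusted p = 0.59).

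Among 27 pattern recognition and Fc receptors 2 rose and 2 fell, with a median of 0.28. Over all tested genes 2.05% were higher and 0.459% lower. The 2 that fell were the scavenger receptors Marco and Cd36, described with the resident and lipid genes. The inhibitory IgG receptor Fcgr2b was at 3809, 4810.4 and 5379.7 against 614 and 367, 9.72-fold higher (adjusted p = 3.7e-08). Tlr9, the endosomal sensor of unmethylated DNA, was at 1009, 521 and 487 against 25.7 and 13.8, 32-fold higher, and at 17.2, 2.0 and 16 in 4-week MHCII-low cells. For Tlr9 the 4-week MHCII-low libraries overlapped the controls. The activating receptors Fcgr1, Fcgr3 and Fcgr4 were not called (0.11, 0.43 and 0.49 on the log2 scale). Tlr2, for bacterial lipoproteins, was at 13049, 13383 and 17519 against 11780.0 and 11514 (adjusted p = 0.54), and Tlr4 and Tlr7 differed by 0.16 and 0.05 (adjusted p = 0.8 and 0.95).

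Of 23 macrophage transcription factors 3 rose and 0 fell, beside 2.05% and 0.459% of all tested genes. Their median was 0.16. Irf4, a factor of antigen-presenting and alternatively activated cells, was at 1486, 1451 and 1267 against 280.1 and 403 (4.15-fold, adjusted p = 0.00084). Irf4 stood at 218, 281 and 147 in 4-week MHCII-low cells, overlapping the controls. Runx3 had 248, 224 and 54.8 against 17.1 and 3.4 (adjusted p = 0.035), a call lost without MHCII-high replicate 1 (0.084) or 2 (0.084) and without control replicate 1 (0.055) or 3 (0.56). The factor that sets the alveolar macrophage identity, Pparg, was at 7195, 7732 and 9022 against 7262 and 5938 (adjusted p = 0.46). Bhlhe41, another identity factor, Spi1 (PU.1) and Zeb2 differed by 0.06, -0.10 and 0.00 on the log2 scale, and none was called. Runx1 was at 23231, 23890.4 and 20419.7 against 17117 and 19307 (adjusted p = 0.44).

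Of 17 tested interferon-gamma-inducible genes, 0 were past the threshold in either direction with limma, beside 2.51% of all genes, and 4 had an unadjusted p below 0.05. With edgeR 0 were called, with DESeq2 1 and without MHCII-high replicate 3 also 1, and the median was 0.08. Tap1, a peptide transporter for MHC class I, was at 1526, 1374 and 982 against 797 and 587 (adjusted p = 0.091). Psmb9, an immunoproteasome subunit, was at 1469, 1669 and 1316 against 906 and 1076 (adjusted p = 0.33). Irf1, the first transcription factor of the response, was at 481, 298 and 374 against 627 and 539 and the chemokine Cxcl10 at 8.3, 32.9 and 2.4 against 55.7 and 42.2, so the MHCII-high libraries lay below the controls in both, without a call. Of 26 interferon-stimulated genes 3 were higher (beside 2.05% of all tested genes), 0 lower, and the median was 0.29. They were Ifi44 (385, 413 and 252 against 52.6 and 48.2), Oas2 (689, 326 and 275 against 82.2 and 114) and Mx1 (152, 75.3 and 335 against 17.5 and 15.5), which act against viruses. Each of these calls was lost without either control, with adjusted p of 0.073 and 0.13 for Ifi44, 0.18 and 0.08 for Oas2, and 0.2 and 0.34 for Mx1 without control replicates 1 and 3, and those of Oas2 (0.054) and Mx1 (0.066) without MHCII-high replicate 1 and of Mx1 without MHCII-high replicate 3 (0.14). Ifit1 and Isg15, core genes of the type I response, differed by -0.16 and -0.91 (adjusted p = 0.93 and 0.73).

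Inflammatory cytokine and inflammasome genes gave 0 calls of 14 with limma, with edgeR and with DESeq2, 2 had an unadjusted p below 0.05, and the median was -0.31. Il1b was at 662, 800.2 and 1146 against 1044 and 424, Tnf at 758, 740.5 and 1159.9 against 1297 and 1050.3 and Il1a at 489, 458 and 296 against 709 and 878 normalized counts. The receptor antagonist Il1rn was at 17894, 17988 and 15450.2 against 19902 and 23702. Il1b and Tnf overlapped between groups, while Il1a and Il1rn lay lower in every MHCII-high library without passing the test (adjusted p = 0.17 and 0.45).

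Lysosomal genes rose in 5 of 24 cases and fell in 0, beside 2.05% and 0.459% of all tested genes. Their median was 0.19. The protease Lgmn, which cuts antigens and the invariant chain, was at 7016, 4708 and 4866 against 2843 and 2998, 1.86-fold higher. Ctsh, Cst3 and Psap rose 1.65-fold, 1.87-fold and 1.89-fold. Cathepsin S, the protease that trims the invariant chain in antigen-presenting cells, was at 44362, 38325 and 61586 against 35719.8 and 29984 without a call (adjusted p = 0.21). The calls of Lgmn, Ctsh, Cst3 and Psap were lost without control replicate 1 (adjusted p 0.17 to 0.39, Cst3 and Psap the ends) and without control replicate 3 (0.13 to 0.43, the same genes). They also depended on single MHCII-high libraries: Lgmn (0.075) and Cst3 (0.085) on replicate 1, Psap (0.058) on replicate 2, and Ctsh (0.097), Cst3 (0.11) and Psap (0.17) on replicate 3. The Cst3 call was also lost with TMM factors, voom or edgeR, that of Psap with TMM factors or edgeR and that of Ctsh with edgeR.

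Of 22 tested genes of resident alveolar macrophages 5 were lower and 0 were higher, 17 had a negative sign, and the median log2 fold change was -0.34. Marco (chr1:120474538-120505024), a scavenger receptor for particles and bacteria, was at 4173, 3778 and 3242 normalized counts against 13347 and 9686, -1.61 ± 0.24 on the log2 scale (adjusted p = 0.00038). In 4-week MHCII-low cells Marco was at 7686, 8424 and 9367, -0.43 ± 0.24 against control (adjusted p = 0.83). The keratins Krt79 and Krt19 fell by 1.04 and 0.88 on the log2 scale, at 1809, 2234 and 1405 against 4043 and 3328 and 3338, 2818 and 2079 against 4844 and 5093. Cidec, a lipid droplet protein, was at 5057, 4019.7 and 2765 against 10062 and 7046. All MHCII-high libraries lay below both controls in these genes, while 4-week MHCII-low cells had 4596, 3674 and 4270.0 for Krt79 and 12604, 7047 and 8445 for Cidec, overlapping the controls. The chitinase-like protein Chil3 (244886, 178622 and 184199 against 199884 and 163234, whose near-identical relatives may share reads) and the mannose receptor Mrc1 (97656, 111662 and 97292 against 104466 and 115602) overlapped between groups. Car4 and Ear2 were not called (-0.38 and -0.13). Summed over the list, the level was 523605 to 599107 in the MHCII-high libraries and 609124 and 617321 in the controls. Without control replicate 1 the calls of Krt79 (adjusted p = 0.18), Cidec (0.31) and Krt19 (0.18) were lost, and without control replicate 3 those of Krt79 (0.058) and Krt19 (0.33). Without MHCII-high replicate 3, Cidec (0.075) and Krt19 (0.12) were lost, and without replicate 2 Krt19 (0.053).

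The genes of the sort gates were present in all 5 libraries. Itgax, which encodes CD11c, was at 25185, 27593 and 35321 against 29823 and 29931 and did not differ past the threshold (-0.04 ± 0.17, adjusted p = 0.95). Siglecf (chr7:43351341-43359531) was at 4358, 4139 and 3728 against 6461 and 7034, and fell by 0.73 on the log2 scale (adjusted p = 0.02). Since SiglecF protein was part of the gate, this describes the sorted cells. The Siglecf call was lost without MHCII-high replicate 3 (adjusted p = 0.058), control replicate 1 (0.1) or control replicate 3 (0.29), so that of the 5 resident macrophage genes called, Marco alone was called without every 1 of the 5 libraries.

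Among fatty acid synthesis, uptake and storage genes 1 of 21 was higher and 2 were lower (Cd36 and Cidec), with a median of -0.20. Of all tested genes 2.05% were higher and 0.459% lower. The fatty acid transporter Cd36 was at 6683, 6878 and 5465 against 16560.4 and 11939 and fell by 1.16 on the log2 scale. Fatty acid synthase, Fasn, was at 989, 1616 and 1467 against 629 and 534, 2.29-fold higher (adjusted p = 0.027). Lpl, the lipoprotein lipase, was at 68716, 76791 and 75060.0 against 73903 and 111065 and the droplet coat protein Plin2 at 19607, 16937 and 21636 against 26689 and 21799.8, and neither was called. The Cd36 call was lost without control replicate 1 (adjusted p = 0.28), control replicate 3 (0.051) or MHCII-high replicate 3 (0.056), and that of Fasn without control replicate 1 (0.11), control replicate 3 (0.35), MHCII-high replicate 2 (0.082) or MHCII-high replicate 3 (0.067). The Fasn call was also lost with voom or edgeR.

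Cell cycle genes had a negative sign in 21 of 24 cases and a median of -0.87, and 2 were called lower. Bub1b, a spindle checkpoint kinase, was at 379, 579 and 195 against 1417 and 1191 (-1.89 ± 0.37, adjusted p = 0.0051). Mcm5, a helicase subunit that opens DNA for replication, was at 166, 221 and 263 against 636 and 549 (-1.47 ± 0.33). The proliferation marker Mki67 was at 6136, 6180.1 and 2924 against 11128 and 9617 and missed the threshold (adjusted p = 0.062), and Top2a was at 2033, 2901 and 885 against 3306 and 3478 (adjusted p = 0.17). MHCII-high replicate 3 was the lowest library for Bub1b, Mki67 and Top2a. In 4-week MHCII-low cells Mki67 was at 4721, 5507 and 3895 and Top2a at 1336, 1540.2 and 1263, also below both controls. The same held there for Bub1b (627, 682 and 588.5) and Mcm5 (376, 441 and 312). Of the 24 genes 0 were called between both 4-week groups, and 0 between 4-week MHCII-low and control cells. Both calls were lost without control replicate 1 (adjusted p = 0.092 for Bub1b and 0.21 for Mcm5) or control replicate 3 (0.056 and 0.15).

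Among the largest decreases, those of genes with at least 100 normalized counts on average were led by Ung and Gen1, which remove uracil from DNA and resolve recombination junctions. Ung was at 154, 42.4 and 14.6 against 239.6 and 439 (-2.79 ± 0.69) and Gen1 at 37.5, 28.2 and 30.4 against 216 and 220.4 (-2.74 ± 0.56). The mitotic genes Ckap2l and Kif23 fell by 1.50 and 1.37 on the log2 scale. Dnah11, a dynein heavy chain, was at 866, 406 and 792 against 2262 and 3125, and the RNA-binding protein Igf2bp2 at 706, 779.8 and 284 against 2233 and 1881. Ppp1r9a, an actin-binding phosphatase regulator, was at 962, 1126 and 1234 against 3075 and 3704 (-1.61 ± 0.24, adjusted p = 0.00029) and at 1673, 1395 and 1208 in 4-week MHCII-low cells, so both bleomycin groups were below the controls. The Hippo pathway coactivator Wwtr1 (TAZ) fell by 1.44 and Thumpd1, a tRNA modification adaptor, by 1.38. The chaperone Hsp90aa1 (1424, 1167 and 1296 against 2483 and 2275) was the 1 gene of 19 heat shock and immediate early genes that was called. Of these 19 genes 0 were higher, and their median was 0.25. Hsp90aa1 was at 992, 1293 and 1210 in 4-week MHCII-low cells. These cells also lay below both controls for Ung, Gen1, Ckap2l, Kif23, Igf2bp2 and Thumpd1. For Dnah11 and Wwtr1 they overlapped the controls. None of the genes in this paragraph was called between 4-week MHCII-low and control cells. Of the genes in this paragraph, Ppp1r9a alone kept its call without every 1 of the 5 libraries. Without control replicate 3 the adjusted p was 0.49 for Ung, 0.14 for Gen1, 0.13 for Dnah11, 0.06 for Igf2bp2, 0.51 for Ckap2l, 0.25 for Kif23, 0.52 for Wwtr1, 0.22 for Thumpd1 and 0.25 for Hsp90aa1. Without control replicate 1 it was 0.1 for Ung, 0.092 for Gen1, 0.095 for Igf2bp2, 0.15 for Ckap2l, 0.26 for Kif23, 0.082 for Wwtr1, 0.3 for Thumpd1 and 0.3 for Hsp90aa1. Single MHCII-high libraries ended calls too: replicate 1 for Kif23 (0.067), replicate 2 for Ung (0.06), Thumpd1 (0.089) and Hsp90aa1 (0.09), and replicate 3 for Ung (0.085), Ckap2l (0.096), Kif23 (0.12), Wwtr1 (0.079) and Hsp90aa1 (0.065).

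**Figure D4:**
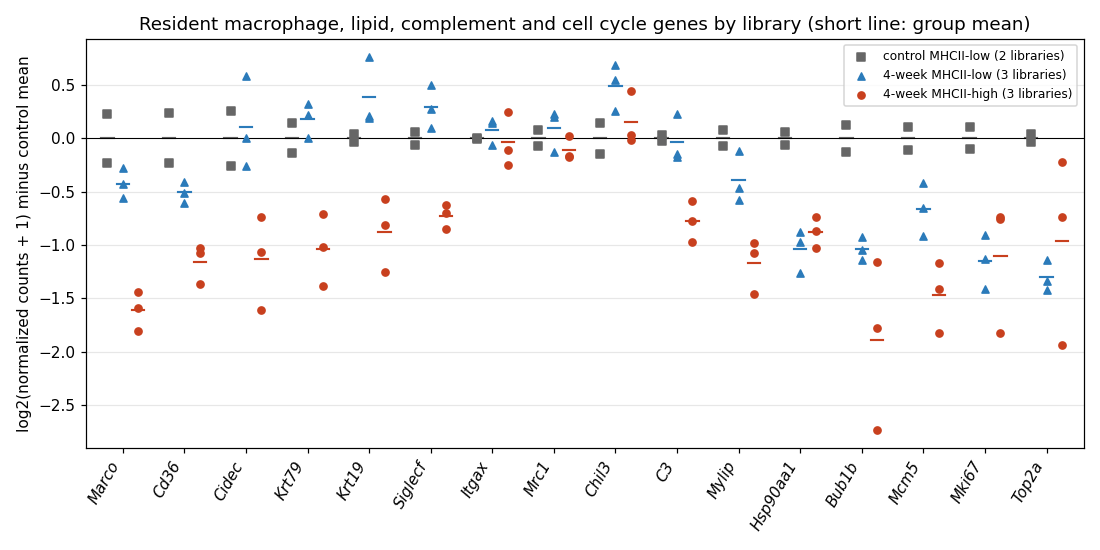
Log2(normalized counts + 1) of each library minus the mean of the control libraries for resident macrophage, lipid, complement and cell cycle genes. Marco has the lowest MHCII-high mean among the resident macrophage genes, and the groups overlap for Itgax, Mrc1 and Chil3. For Bub1b, Mcm5, Mki67 and Top2a both bleomycin groups lie below 0.

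Marker genes of other lung cells were measured beside these results. Dendritic cell markers had 4 of 13 genes higher and a median of 3.45: besides Ccl22, Fscn1 and Ccr7, the growth factor receptor Flt3 was at 187, 281 and 229 against 0 and 1.7. Both controls together held 2 Flt3 reads, so the ratio of 439 has a 95% counting interval of 121 to 3640. The lineage factor Zbtb46 was at 281, 303 and 82.8 against 101 and 176 and was not called (adjusted p = 0.81). Clec9a and Xcr1, markers of cross-presenting dendritic cells, were at 4.2, 262 and 377 against 64.7 and 65.4 and 137, 102 and 9.7 against 65.8 and 5.2, with overlapping groups. B cell markers had 2 of 10 genes higher and a median of 4.19 (4.18 with Pax5 at its lower bound). Ighd, an immunoglobulin heavy chain, was at 499.5, 295 and 189.9 against 16.8 and 7.7. The B cell factor Pax5 was unread in both controls and at 62.4, 31.4 and 41.4 in the MHCII-high libraries, at least 24-fold higher. Cd79a, a signalling chain of the B cell receptor, was at 379, 209 and 6.1 against 11.3 and 4.3 (adjusted p = 0.25), lowest in MHCII-high replicate 3. Without control replicate 1 the calls of Flt3 (adjusted p = 0.052) and Pax5 (0.11) were lost, and without control replicate 3 those of Fscn1 (0.079), Ccr7 (0.24), Ighd (0.09) and Pax5 (0.15).

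Alveolar type 2 cell markers were among the 14 epithelial genes tested, of which 5 were higher, 0 were lower and the median was 0.68. Sftpc, a surfactant protein, was at 6258, 2438 and 1569 against 169 and 39.6 (5.12 ± 0.60), and the phosphate transporter Slc34a2 at 1623, 847 and 484 against 95.4 and 117 (3.03 ± 0.48). The club cell gene Scgb1a1 was at 6835, 3332 and 4478 against 8983 and 18599 and was not called. The 11 alveolar genes of the list summed to 9741 to 16685 normalized counts in the MHCII-high libraries and 5653 and 5665 in the controls, and the 3 club cell genes to 4902 to 9108 and 11895 and 24263. T and NK cell markers gave 0 calls of 9 with limma, 2 at an unadjusted p below 0.05, 0 with edgeR and 2 with DESeq2, had a median of 0.03 and summed to 1288 to 1624 against 544.1 and 768.6. Most of the T and NK sum was Il7r, at 918, 764 and 1429 against 589 and 362. Of the 9 genes 5 had a positive sign, Cd4 among them, and 4 a negative one. Among the negative ones were the T cell genes Cd3e (2.1, 20.4 and 0 against 31.9 and 14.6) and Lck (29.1, 4.7 and 0 against 21.8 and 17.2). Neutrophil markers gave 0 calls of 7 with limma, edgeR and DESeq2 (1 at an unadjusted p below 0.05), had a median of 0.45 and summed to 4647 to 7580 against 4249 and 7872. Fibroblast and endothelial markers gave 0 of 10 (3 at an unadjusted p below 0.05) with limma, edgeR and DESeq2, had a median of -0.97 and summed to 3482 to 4535 against 2051 and 2645. Much of that sum was the endothelial gene Vwf, at 2291, 2551 and 3359 against 1722.5 and 1474. Of the 10 genes 4 had a positive and 6 a negative sign. Eosinophil markers gave 0 of 2 with the same 3 tools (0 at an unadjusted p below 0.05) and a median of 0.73, with Prg2 and Prg3 at 0 in all 5 libraries. The part of these cells in the other results was not tested. The sum for B cells leaves out Cd22 (9609, 8651 and 9210.0 against 9862 and 9687), a choice made after its values were seen. The calls of Lamp3 (0.13), Hopx (0.086) and Etv5 (0.22) were lost without control replicate 3, those of Hopx (0.28) and Etv5 (0.19) without control replicate 1, and further those of Hopx without MHCII-high replicate 3 (0.058) and Etv5 without MHCII-high replicate 1 (0.075).

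**Figure D5:**
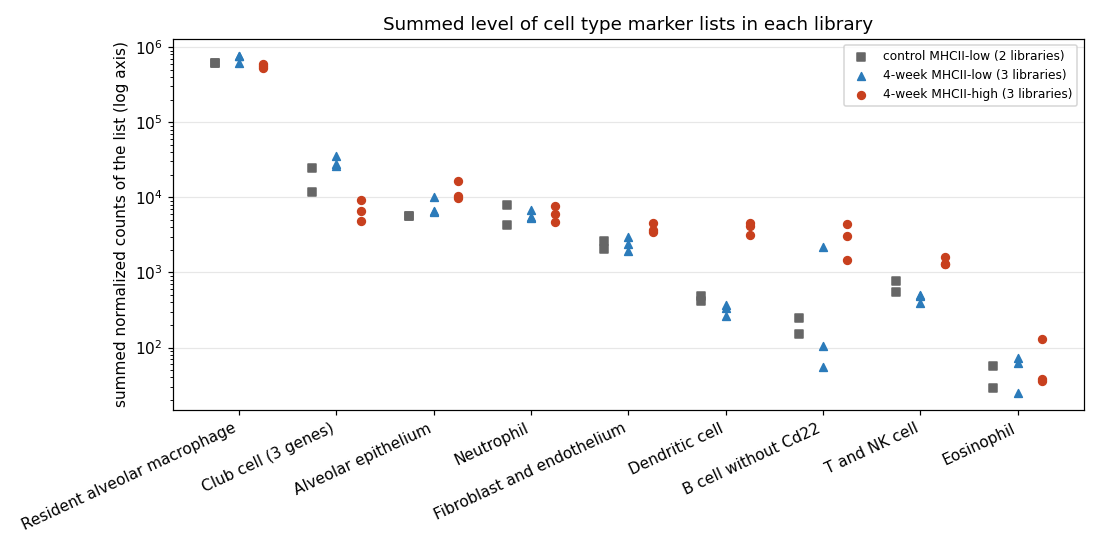
Summed normalized counts of cell type marker lists in each library on a log axis. The dendritic cell sum is 3172 to 4619 in MHCII-high libraries and 411.6 to 479.9 in controls, and the resident alveolar macrophage sum lies within 523605 to 617321 in the same 5 libraries.

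Beside this comparison, the 2 comparisons that each share libraries with it gave the following. Between 4-week MHCII-high and 4-week MHCII-low cells 426 genes were called (2.75%), 343 higher (2.22%) and 83 lower (0.536%). Between 4-week MHCII-low and control cells 6 were called, 5 higher (0.0323%) and 1 lower (0.00646%). Lrg1 and H2-Ab1 were described above. Cd63, a tetraspanin of late endosomes, had 1825, 1922 and 2277 normalized counts in MHCII-high, 1178, 1221 and 1855 in MHCII-low and 473 and 592 in control libraries. Its log2 fold change over control was 1.92 for MHCII-high (adjusted p = 3.7e-05) and 1.39 for MHCII-low cells (adjusted p = 0.029). Pianp, a ligand of paired immune receptors, differed by 6.47 and 4.20 in the same order (adjusted p = 2.2e-06 and 0.0095). The stress chaperone Hspa1b, whose reads may be shared with near-identical Hspa1a, was lower in MHCII-low cells (-4.11, adjusted p = 0.048) and not called in MHCII-high cells (-2.06, adjusted p = 0.17). Cd63 and Pianp were above both controls in all 6 bleomycin libraries of this time. Whether the MHCII-high and MHCII-low differences from control are of unlike size is the comparison between both 4-week groups, in which H2-Ab1 was 4.81 ± 0.31 higher (adjusted p = 1.1e-08) and Lrg1 was not called.

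MHCII-high cells 2 weeks after bleomycin, set against MHCII-low cells of that time, share no library with this comparison. That contrast had 491 calls (3.17%), 386 higher (2.49%) and 105 lower (0.679%). Of the 388 genes called here, 182 were called there too, which is 46.9% of the calls here and 37.1% of those at 2 weeks, and 181 of the 182 had the same direction. All 14 libraries were normalized together and the fits share 1 estimate of the spread. The shared increases were 164, or 51.7% of the increases here, and the shared decreases 17, or 23.9% of the decreases here. The shared genes with the same direction numbered 121 without control replicate 1, 92 without control replicate 3 and 314 with DESeq2. Marco fell in both (-1.91 ± 0.22 at 2 weeks, adjusted p = 2.1e-05), and H2-Aa (5.07 ± 0.33), C1qc (5.02 ± 0.55) and Itgam (2.28 ± 0.31) rose in both. The cholesterol genes Sqle and Msmo1 differed by -0.40 ± 0.20 and -0.09 ± 0.22 in the 2-week contrast (adjusted p = 0.33 and 0.9). Both sides of that contrast lay above the controls for these genes. Sqle averaged 9590 normalized counts in the MHCII-low libraries of that time, 7331 in their MHCII-high counterparts and 1370 among controls. For Msmo1 the means were 3548, 3386 and 725 in the same order. The distance of the 2-week groups from the controls was not tested. The cell cycle genes Bub1b and Mcm5 were not called in the 2-week contrast either (-0.31 ± 0.33 and 0.73 ± 0.30, adjusted p = 0.72 and 0.23). Whether these differences between the contrasts are larger than their error was not tested.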

How the data were processed

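RNA-seq of sorted mouse lung macrophages was analysed from 1 table of 14 libraries. The authors deposited normalized counts (a signal scaled per library, rounded to 1 decimal); STAR, DESeq2 and the mm10 build are named per the submitters' processing notes, with no versions. Each value is a whole multiple of what 1 read is worth in that library, so reads were recovered for use in alternatives. Here limma 3.58.1 (R 4.3.3) was fitted to log2(normalized counts + 1) with trend, over all 14 libraries with 1 coefficient for each of 5 groups, and p-values were adjusted by Benjamini-Hochberg over 15475 genes. A gene is called at an adjusted p of at most 0.05. On this scale fold changes of low genes are understated; ± values are standard errors. No blocking by replicate number was used. The script was tested on simulated data. Libraries of a group differed by more than counting noise. Every per-sample column was mapped to a library. The gene lists, the comparison and the groups were chosen with earlier results of these data known.

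Genes named by rule were the 12 largest increases and decreases among called genes whose groups did not overlap. These had a mean of at least 100 normalized counts over the 5 libraries. The rule also took all class II, sort marker and C1q genes. From each list it took the 4 with the smallest p and the 2 with the highest mean level. Other list members are named for their role, after their values were seen. Alternatives were edgeR 4.0.16 and DESeq2 1.42.0 on recovered reads, limma voom, TMM factors, pseudocounts of 0.5 and 5, other filters, the 5 libraries alone, mitochondrial rRNA share or GC trend as corrections, a replicate block and leaving out each library. Intervals and floors cover counting error only, since no molecular identifiers are described. Coordinates are those of the deposited table, which for 90.1% of 42462 genes have the same span as GENCODE M21. Promoters are from RefSeq (GRCm38.p6). Some genes that meet the rule for named genes are not reported here.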

Additional observations from a re-analysis of the deposited data

Results flagged for a closer look

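MHCII-high cells of both times can be set against the same controls, and the difference between those differences is the 4-week minus 2-week contrast of MHCII-high cells (limma, Benjamini-Hochberg, 3 libraries each), in which 148 genes were called (0.956%), 49 higher and 99 lower. Of the genes taken by the rule for named genes or called in a list, 17 reported here differed in that test and so had a smaller or larger distance from control at 4 weeks. Among matrix and injury products, Mmp14 was -2.81 ± 0.41 (adjusted p = 0.0019) on the log2 scale, Spp1 -2.03 ± 0.22 (adjusted p = 0.00018), Lrg1 -1.72 ± 0.38 (adjusted p = 0.035), Fn1 -1.15 ± 0.21 (adjusted p = 0.011), Timp2 -0.77 ± 0.18 (adjusted p = 0.045) and Gpnmb -0.77 ± 0.17 (adjusted p = 0.029), each lower at 4 weeks. Among complement genes, C4b was -2.30 ± 0.40 (adjusted p = 0.0074), C3 -1.05 ± 0.16 (adjusted p = 0.0041) and C3ar1 -1.48 ± 0.30 (adjusted p = 0.023), while C5ar1 was the 1 gene of the 17 that was higher at 4 weeks, at 0.91 ± 0.15 (adjusted p = 0.0053). Of receptors, Fcgr2b was -1.48 ± 0.21 (adjusted p = 0.0019), Ccr2 -1.01 ± 0.18 (adjusted p = 0.011), the neutrophil marker Cxcr2 -1.55 ± 0.37 (adjusted p = 0.049) and the T cell marker Il7r, the interleukin 7 receptor, -1.30 ± 0.30 (adjusted p = 0.038). Il1b, outside that rule, was -1.37 ± 0.30 (adjusted p = 0.031). Neither Cxcr2 nor Il7r was called against control (adjusted p = 0.69 and 0.092). The cholesterol gene Sqle, above control at 4 weeks, was -1.03 ± 0.20 (adjusted p = 0.014). The lower genes Gen1 and Mcm5 were -2.32 ± 0.50 (adjusted p = 0.028) and -1.29 ± 0.30 (adjusted p = 0.04). The 4-week libraries are the same as in the main comparison, and processing date or batch of the 2 times is not given in the labels, so time and batch cannot be told apart.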

How the results depend on the processing

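The number of called genes depended on the setting, and 0 called genes changed sign in any of the 19 alternatives. Against 388 calls (317 higher, 71 lower), the 5 libraries alone gave 135 (129 and 6), edgeR with library totals 247 (218 and 29) and DESeq2 732 (574 and 158, with 687 genes without an adjusted p). With no filter beyond a value above 0 there were 439 calls, of which 167 were lower and 62.0% were higher. Leaving out 1 library gave 137 to 457 calls, 133 to 320 higher and 4 to 146 lower. The lowest counts came without control replicate 3 and without control replicate 1 (213), where an arm has 1 library. DESeq2 moved the median of all genes by 0.11 on the log2 scale. Of 100 called genes that were named or in a list, 38 kept their call in every setting, and 48 lost it in the 5-library fit, which has 3 residual degrees of freedom. Of those 100 calls, 6 were lost with TMM factors (H2-DMa, Cst3, Psap, Srebf2, Ccr1 and Lss), 12 with voom (H2-DMa, Cst3, Srebf2, Ccr1, Lss, Fasn, Fscn1, Mx1, Runx3, Cd163, Cxcl13 and C4b), 13 with edgeR on TMM factors (Ung, Wwtr1, Kif23, H2-DMa, Stard4, Fasn, Ctsh, Cst3, Psap, Srebf2, Ccr1, Lss and F13a1), 23 with edgeR on library totals (C3, Siglecf, Cidec, Mx1, Runx3, Lgmn and Trem2 among those not yet named) and 0 with DESeq2. With no filter 17 were lost, and with the rRNA share as a covariate 6. Replicate numbers occur in both groups. Deviations of same-numbered libraries from their group means had correlations of 0.02 and 0.04. With 2 controls the control deviations mirror each other, so this check cannot decide whether the numbers pair the samples. With the replicate block there were 415 calls (336 higher and 79 lower). The smaller depth of the MHCII-high libraries limits what can be said of low genes. With 2 controls, each control decides many decreases.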
